A study of Sus scrofa with 8 samples.

Results

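Integrins are cell surface receptors, each built from an α and a β chain, that tie cells to the extracellular matrix and to other cells. Laminins are their ligands in the basement membrane, the thin matrix sheet around each cardiomyocyte and under the endothelium, and each laminin is assembled from an α, a β and a γ chain. Nidogens link laminin to the collagen IV network of that sheet. In the heart the integrin β1 chain pairs with α7 on cardiomyocytes, where the complex binds laminin and carries force to the cytoskeleton through talin, kindlin and vinculin.

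The genes described here were the rows of the count table named as integrin α or β chains, laminin chains or nidogens. They numbered 40 of 31014 genes, comprising 18 integrin α chains, 8 integrin β chains, 5 laminin α, 4 laminin β and 3 laminin γ chains, and 2 nidogens. Messenger RNA was sequenced from heart tissue of wild-type miniature pigs given doxorubicin (5 libraries) and of wild-type miniature pigs given vehicle (3 libraries). Doxorubicin is an anthracycline used against cancer that is known to damage the heart. The sources used here give no age, dose or schedule. The labels do not say that each library came from a separate animal, so the p-values reflect only how far these libraries spread, and that spread may be technical.

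Library totals ran from 16105242 to 18267178 counts. Cardiomyocyte markers (13 of 14 found under their symbols) summed to 43174 to 77618 CPM (counts scaled to library size by TMM) in the doxorubicin libraries and 76283 to 81402 CPM in the vehicle libraries, which fits the tissue label. Of the 13, 0 were called higher and 1 lower (RYR2), where 13.6% of all tested genes were called higher and 11.3% lower. The markers differed in doxorubicin 5, the lowest sum. Most of them lay below all vehicle libraries there. MYH7 had 13211 CPM, against 31174 to 36593 CPM in vehicle. RYR2, TTN, TNNI3, ACTC1, MYL3, MYBPC3, ACTN2, CASQ2 and LDB3 were also below vehicle. The exceptions were TNNT2, with 4279 CPM in doxorubicin 5 against 1805 to 3062 CPM in vehicle, and TNNC1 and MYL2, within the vehicle range. Doxorubicin 5 was the least like its group, correlating at 0.912 on average with the other 4 doxorubicin libraries, which reached 0.941 to 0.956. Fibroblast markers summed to 31765 CPM in doxorubicin 5, to 2813 to 7654 CPM in the other doxorubicin libraries and to 1542 to 1772 CPM in vehicle. Endothelial markers summed to 688 CPM in doxorubicin 5, to 1081 to 1832 CPM in the other doxorubicin libraries and to 1430 to 1784 CPM in vehicle. In tissue RNA, fewer cells of a type and less RNA per cell cannot be told apart.

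After doxorubicin the laminin receptor chain ITGA7 and the laminin chains LAMA5 and LAMB1 rose together with NID2, ITGA3, the collagen receptor chains ITGA10 and ITGA11, and the leukocyte chains ITGB2, ITGAL, ITGAM and ITGAX. ITGB6 fell. By mean level per gene length, LAMB2, ITGB1, ITGA5 and LAMC1 ranked 1 to 4 in vehicle, and none of them passed the test. After doxorubicin ITGA7 ranked 2 and NID2 ranked 5. Of the 40 genes, 39 passed the filter on low counts, and LAMB4 did not. In the fit across all genes 13 of the 39 were called higher and 1 lower, where 13.6% of the 14938 tested genes were called higher and 11.3% lower. The median log2 fold change of the 39 was 0.50, against 0.02 over all tested genes, and 25 did not pass. The calls leaned on the vehicle libraries, for members as over all genes. Without vehicle 1, vehicle 2 or vehicle 3, the members called higher numbered 2, 4 or 1, and ITGB6 was not called. Over all genes the same fits called 334, 1106 or 338 higher, against 2033 with all libraries, and 315, 863 or 374 lower, against 1681. Without doxorubicin 3, 8 members and 1424 of all genes were called higher. LAMA5 alone passed whichever library was left out.

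**Figure D1:**
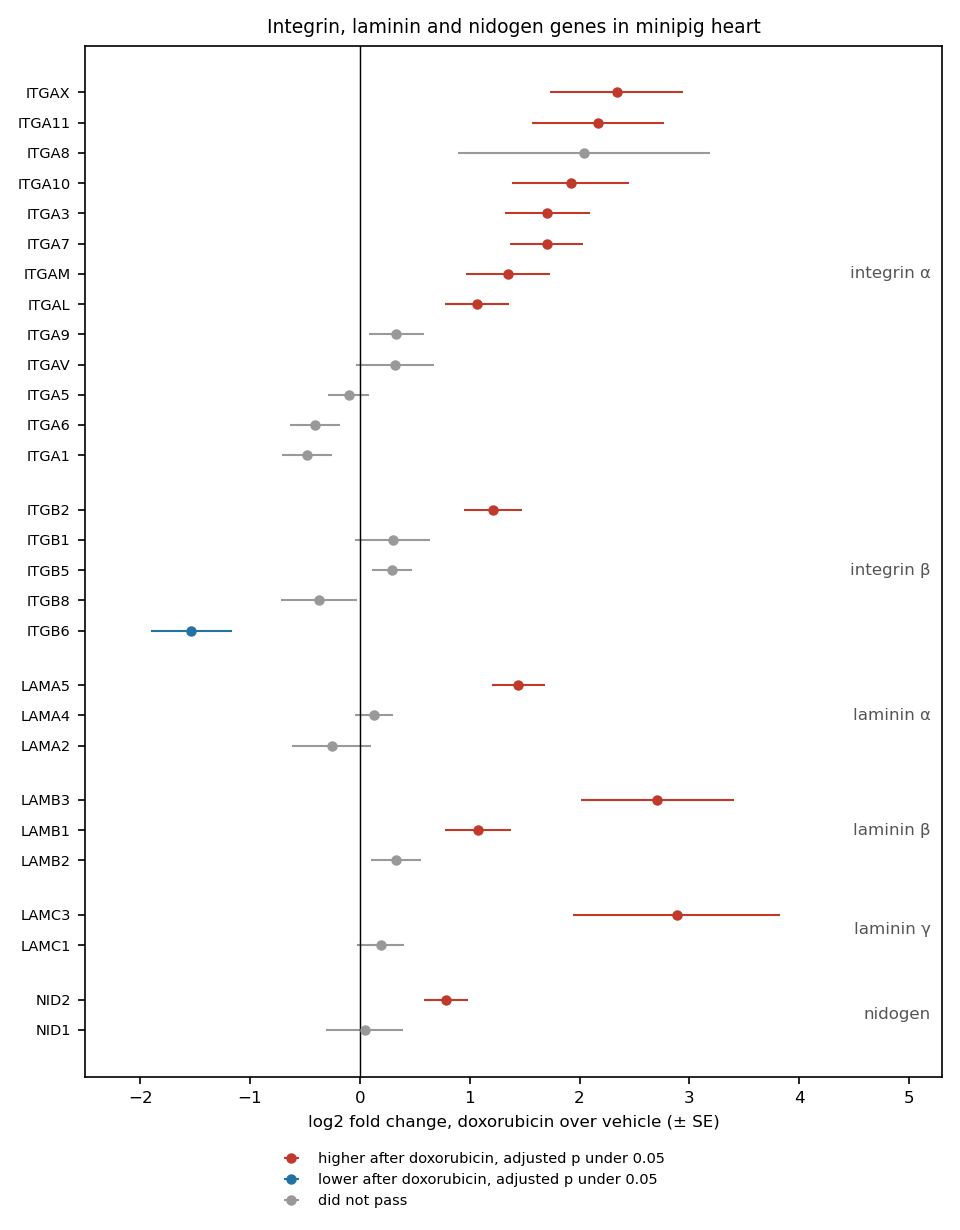
Log2 fold change (doxorubicin over vehicle, ± SE) of the 28 integrin, laminin and nidogen genes that were called or averaged 20 CPM or more, grouped by chain class, from 5 doxorubicin and 3 vehicle libraries. The 13 called higher lie between 0.78 and 2.88, ITGB6 is at −1.54, and ITGB1, LAMC1, LAMA4 and NID1 lie at 0.30 or less.

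Levels of different genes are compared here as CPM per kilobase of the deposited gene length (RPKM). LAMB2 had the highest mean of the 40 genes in both groups, at 119 ± 24.8 RPKM after doxorubicin and 94.7 ± 4.87 RPKM in vehicle (SD, n = 5 and n = 3). ITGA7 came next after doxorubicin, at 106 ± 46.0 RPKM, against 32.7 ± 3.54 RPKM in vehicle, where it ranked 6. ITGB1 followed, at 102 ± 47.6 RPKM after doxorubicin and 83.1 ± 8.005 RPKM in vehicle. The doxorubicin means of these 3 genes differed by less than their SDs. ITGB6 ranked 17 after doxorubicin and 11 in vehicle, and LAMA5 ranked 11 after doxorubicin and 16 in vehicle.

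Among the integrin α chains that bind laminin, 2 of 3 rose, where 13.6% of all tested genes were called higher. ITGA7, the α chain of muscle (chromosome 5, 21126565 to 21150875 on Sscrofa11.1), had 366, 472, 805, 292 and 384 CPM in doxorubicin 1 to 5, and 148, 155 and 125 CPM in vehicle 1 to 3. Every doxorubicin library lay above every vehicle library, and doxorubicin 3 was the highest. The log2 fold change was 1.70 (SE 0.33, adjusted p = 0.0105), a 3.25-fold higher level. ITGA3, a laminin receptor chain best known from epithelium (chromosome 12, 26234769 to 26269327), had 8.46, 12.4, 24.2, 10.01 and 18.0 CPM after doxorubicin, and 6.14, 3.81 and 3.48 CPM in vehicle. Its groups did not overlap, and its log2 fold change was 1.71 (SE 0.39, adjusted p = 0.0154). ITGA6, the laminin receptor chain that pairs with ITGB1 or ITGB4, had 80.4, 56.1, 53.7, 83.2 and 45.6 CPM after doxorubicin, and 89.7, 68.2 and 96.1 CPM in vehicle. Its groups overlapped, and it did not pass (log2 fold change −0.41, SE 0.23, adjusted p = 0.203). Without vehicle 3 the adjusted p of ITGA7 was 0.0599 and that of ITGA3 0.0753.

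Of the laminin α chains 1 of 5 rose, a count near the 13.6% of all tested genes called higher. LAMA5, the α chain of vascular and epithelial basement membranes (chromosome 17, 61698370 to 61747795), had 249, 271, 387, 204 and 206 CPM after doxorubicin, and 105, 97.2 and 88.7 CPM in vehicle. The lowest doxorubicin library was close to double the highest vehicle library. The log2 fold change was 1.44 (SE 0.24, adjusted p = 0.00756), the smallest adjusted p of the 39 genes. LAMA2, the laminin chain of the cardiomyocyte basement membrane, whose loss causes a congenital muscular dystrophy (chromosome 1, 33765412 to 34359741), had 244, 229, 207, 232 and 66.0 CPM after doxorubicin, and 271, 228 and 201 CPM in vehicle. The groups overlapped, with doxorubicin 5 far below all other libraries (log2 fold change −0.26, SE 0.36, adjusted p = 0.625). The sign turned with library size only and with limma voom. LAMA4, the α chain of small vessels, had 224, 212, 235, 228 and 161 CPM after doxorubicin, and 208, 178 and 196 CPM in vehicle (log2 fold change 0.13, SE 0.17, adjusted p = 0.614). Here too doxorubicin 5 was the lowest library. LAMA1 and LAMA3 averaged 0.792 and 3.05 CPM after doxorubicin and 0.355 and 2.53 CPM in vehicle, and neither passed.

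Of the laminin β and γ chains, LAMB1, LAMB3 and LAMC3 rose. LAMB1 (chromosome 9, 107670120 to 107747242) had 125, 135, 159, 130 and 288 CPM after doxorubicin, and 80.8, 65.7 and 91.2 CPM in vehicle. Its groups did not overlap, doxorubicin 5 was the highest, and the log2 fold change was 1.08 (SE 0.30, adjusted p = 0.0299). LAMB1 and LAMB2 are the β chains that the laminins of heart muscle and vessels share. LAMB2 had 718, 769, 718, 726 and 423 CPM after doxorubicin, and 555, 548 and 504 CPM in vehicle. Doxorubicin 1 to 4 lay above all vehicle libraries and doxorubicin 5 below them, and LAMB2 did not pass (log2 fold change 0.33, SE 0.23, adjusted p = 0.308). Without doxorubicin 5 the log2 fold change was 0.46 and passed (adjusted p = 0.0428), and it also passed with library size only and with limma voom. LAMC1, the γ chain common to most laminins, had 525, 351, 445, 457 and 327 CPM after doxorubicin, and 430, 307 and 369 CPM in vehicle, with overlapping groups (log2 fold change 0.19, SE 0.22, adjusted p = 0.541).

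Among the rare laminin chains, LAMB3, part of the epithelial laminin that anchors skin, had 11, 19, 18, 15 and 17 reads in the doxorubicin libraries and 0, 3 and 2 reads in the vehicle libraries (log2 fold change 2.71, SE 0.70, adjusted p = 0.0227). LAMC3 had 16, 19, 113, 9 and 44 reads after doxorubicin and 7, 2 and 2 reads in vehicle (log2 fold change 2.88, SE 0.94, adjusted p = 0.0499). With so few vehicle reads the size of both changes is poorly determined. LAMC3 was the only called gene of the 14 whose CPM overlapped between groups, and it was not called under 4 of the alternatives that kept all libraries.

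Of the nidogens, NID2 rose and NID1 did not pass. NID2 (chromosome 1, 181699098 to 181773084) had 247, 313, 379, 304 and 244 CPM after doxorubicin, and 184, 153 and 182 CPM in vehicle. All doxorubicin libraries were higher, and the log2 fold change was 0.78 (SE 0.20, adjusted p = 0.0219). NID1 (chromosome 14, 55239327 to 55346948) had 225, 166, 147, 274 and 76.1 CPM after doxorubicin, and 177, 147 and 194 CPM in vehicle. Its groups overlapped, doxorubicin 5 was the lowest, and it did not pass (log2 fold change 0.04, SE 0.35, adjusted p = 0.939). The difference between the changes of NID2 and NID1 was not tested.

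**Figure D2:**
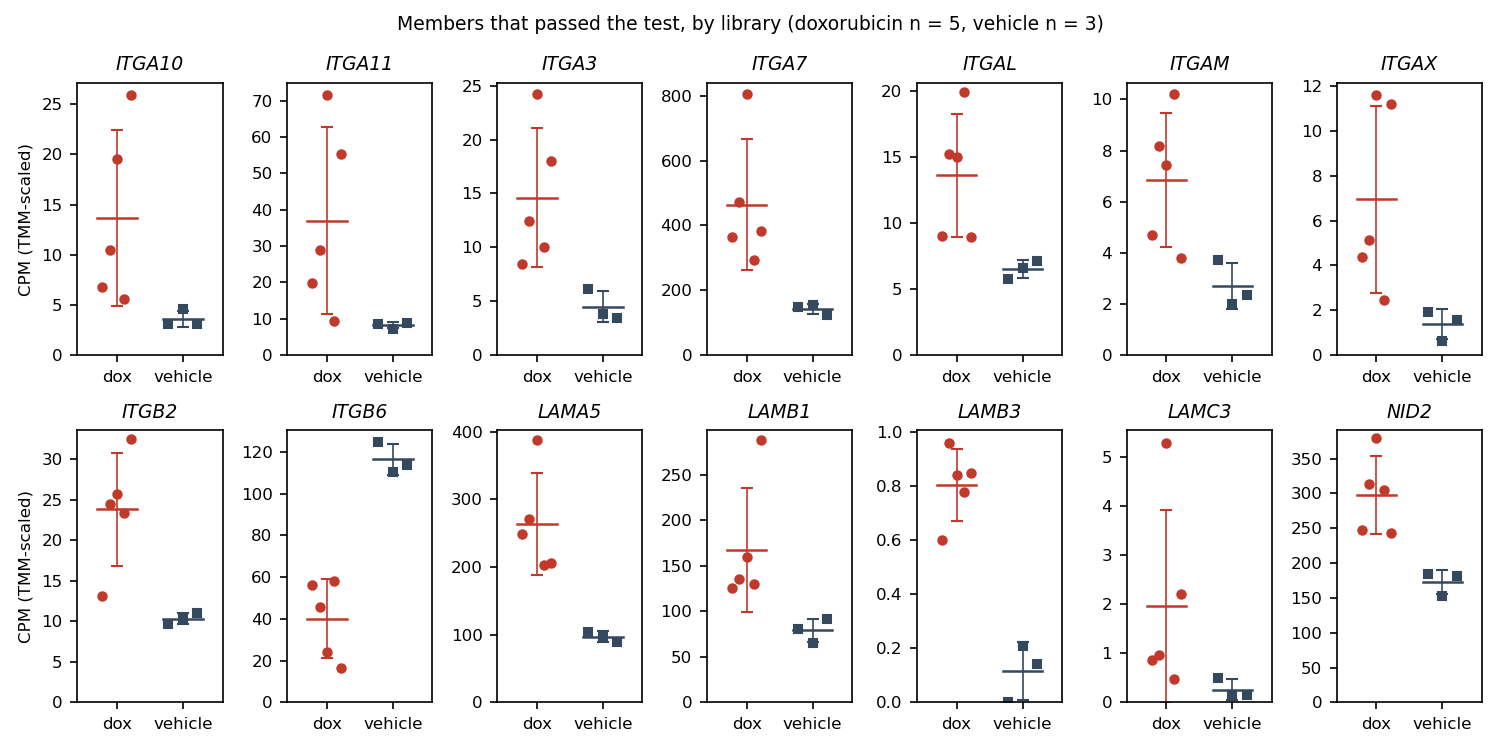
TMM-scaled CPM of the 14 genes that passed the test, 1 panel each, in 5 doxorubicin libraries (red circles) and 3 vehicle libraries (dark squares), with horizontal lines at the means and error bars of 1 SD. Groups do not overlap for any of the 14 except LAMC3, and ITGB6 is the only one that is lower after doxorubicin.

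Of the integrin α chains that bind collagen, 2 of 4 rose, where 13.6% of all tested genes were called higher. ITGA11, the collagen receptor chain of fibroblasts (chromosome 1, 166186601 to 166311046), had 19.9, 28.9, 71.6, 9.29 and 55.4 CPM after doxorubicin, and 8.64, 7.21 and 8.89 CPM in vehicle. Groups did not overlap, though doxorubicin 4 lay just above the vehicle libraries, and the log2 fold change was 2.17 (SE 0.60, adjusted p = 0.0303). ITGA10, a collagen receptor chain best known from cartilage, had 6.77, 10.5, 19.6, 5.602 and 26.0 CPM after doxorubicin, and 3.14, 4.58 and 3.13 CPM in vehicle (log2 fold change 1.92, SE 0.53, adjusted p = 0.0290). Both were higher in doxorubicin 3 and 5 than in doxorubicin 1, 2 and 4. The summed fibroblast markers were also highest in doxorubicin 3 and 5, at 7654 and 31765 CPM, against 3197, 4926 and 2813 CPM in doxorubicin 1, 2 and 4. Of the 12 fibroblast markers none lacked reads and 5 were called higher, where 13.6% of all tested genes were. These were COL1A1, COL3A1, POSTN, LUM and FAP, each highest in doxorubicin 3 and 5. COL3A1, COL1A2, COL1A1 and POSTN held 11487, 7563, 6607 and 4544 CPM of the sum in doxorubicin 5. PDGFRA, the 1 called lower, had 30.7, 13.3, 9.62, 18.0 and 25.6 CPM in doxorubicin 1 to 5. Of the doxorubicin libraries, PDGFRA and DPT were lowest in doxorubicin 3, and FBLN1, MFAP5 and TCF21 were lowest in doxorubicin 5. FBLN1 had 48.8 CPM there, against 81.8 to 107 CPM in vehicle. MFAP5 had 34.0 CPM there, against 56.3 to 79.8 CPM in vehicle, and TCF21 had 8.25 CPM, within the vehicle range. FBLN1 and TCF21 were highest in doxorubicin 3. The part of fibroblasts in the rise of ITGA10 and ITGA11 was not tested. ITGA1, the collagen receptor chain of vessels and smooth muscle, had 102, 80.9, 87.3, 102 and 56.8 CPM after doxorubicin, and 147, 87.4 and 126 CPM in vehicle, and did not pass (log2 fold change −0.48, SE 0.23, adjusted p = 0.144). Its annotation contains PELO on the same strand, which averaged 30.3 CPM after doxorubicin and 31.4 CPM in vehicle. ITGA2 averaged 1.90 CPM after doxorubicin and 1.34 CPM in vehicle.

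None of the 4 integrin α chains that recognise the RGD motif of fibronectin and related ligands passed. Of all tested genes 13.6% were called higher and 11.3% lower. By edgeR 0 of the 4 had an unadjusted p under 0.05, where 6095 of the 14938 tested genes did. Counts over so few chains cannot be set apart from those shares. No alternative called any of the 4. ITGA5, the fibronectin receptor chain, had 288, 298, 227, 364 and 276 CPM after doxorubicin, and 313, 302 and 321 CPM in vehicle (log2 fold change −0.10, SE 0.18, adjusted p = 0.705; 0.25 with library size only). ITGAV, the chain of the vitronectin receptors, had 108, 145, 248, 83.2 and 97.7 CPM after doxorubicin, and 142, 87.9 and 97.5 CPM in vehicle. Its doxorubicin libraries spanned the vehicle range on both sides (log2 fold change 0.32, SE 0.35, adjusted p = 0.523). ITGA8 varied most among these 4 chains, with 10.9, 18.0, 55.0, 2.02 and 129 CPM after doxorubicin, and 19.2, 3.81 and 8.39 CPM in vehicle. Its log2 fold change of 2.04 (SE 1.15) did not pass (adjusted p = 0.210). ITGA9, which binds tenascin and VCAM1, had 42.0, 35.0, 46.0, 37.2 and 20.6 CPM after doxorubicin, and 34.5, 23.4 and 28.3 CPM in vehicle (log2 fold change 0.33, SE 0.25, adjusted p = 0.347). It passed without doxorubicin 5 (log2 fold change 0.48, adjusted p = 0.0481) and with limma voom.

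Of the 8 integrin β chains, ITGB2 rose and ITGB6 fell, where 13.6% of all tested genes were called higher and 11.3% lower. ITGB6, an epithelial αv partner known for activating latent TGF-β (chromosome 15, 67041516 to 67175409), had 56.1, 45.7, 24.4, 58.3 and 16.3 CPM after doxorubicin, and 125, 110 and 114 CPM in vehicle. All doxorubicin libraries were below all vehicle libraries, lowest in doxorubicin 5 and 3, and the log2 fold change was −1.54 (SE 0.37, adjusted p = 0.0184). Epithelial and mesothelial markers summed to 24.0 to 135 CPM after doxorubicin and 7.14 to 11.9 CPM in vehicle. Of 6 tested, 2 were called higher (KRT8 and CDH1), 0 lower and 4 not called, where 13.6% of all tested genes were called higher. KRT8 held most of the doxorubicin sum on average, at 43.8 CPM after doxorubicin and 2.21 CPM in vehicle, EPCAM averaged 0.0496 CPM after doxorubicin and 0.0237 CPM in vehicle, and 8 of the 9 markers were found under their symbols. ITGB1 (chromosome 10, 56078393 to 56130608) had 524, 682, 860, 511 and 1412 CPM after doxorubicin, and 716, 593 and 634 CPM in vehicle. Its groups overlapped, with doxorubicin 5 the highest (log2 fold change 0.30, SE 0.34, adjusted p = 0.538), and the sign turned without doxorubicin 5 and with limma voom. ITGB5, an αv partner, had 146, 124, 173, 105 and 124 CPM after doxorubicin, and 108, 109 and 112 CPM in vehicle (log2 fold change 0.29, SE 0.18, adjusted p = 0.253). ITGB8, another αv partner, had 20.03, 19.2, 32.8, 11.6 and 15.1 CPM after doxorubicin, and 37.1, 16.1 and 23.5 CPM in vehicle (log2 fold change −0.37, SE 0.35, adjusted p = 0.448). ITGB4, the partner of ITGA6 in hemidesmosomes, averaged 12.6 CPM after doxorubicin and 10.4 CPM in vehicle and did not pass.

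Of the integrin α chains of leukocytes, 3 of 5 rose, where 13.6% of all tested genes were called higher. So did ITGB2, the β chain that pairs with all of these α chains but ITGAE, whose partner is ITGB7. ITGB2 had 13.2, 24.5, 25.8, 23.3 and 32.5 CPM after doxorubicin, and 9.64, 10.3 and 11.02 CPM in vehicle. All doxorubicin libraries were higher, and the log2 fold change was 1.21 (SE 0.26, adjusted p = 0.0136). ITGAL, the LFA-1 chain of lymphocytes, had 9.004, 15.2, 14.99, 19.9 and 8.95 CPM after doxorubicin, and 5.79, 6.59 and 7.11 CPM in vehicle (log2 fold change 1.07, SE 0.29, adjusted p = 0.0287). ITGAM, the Mac-1 chain of myeloid cells, had 4.69, 8.18, 7.42, 10.2 and 3.801 CPM after doxorubicin, and 3.71, 2.01 and 2.35 CPM in vehicle (log2 fold change 1.35, SE 0.38, adjusted p = 0.0314). Both were highest in doxorubicin 4 and lowest in doxorubicin 5, next to vehicle. ITGAX, the chain of dendritic cells and macrophages, which the deposited table classes as a lncRNA, had 4.37, 5.15, 11.6, 2.44 and 11.2 CPM after doxorubicin, and 1.93, 0.624 and 1.56 CPM in vehicle (log2 fold change 2.34, SE 0.60, adjusted p = 0.0228). ITGAX was highest in doxorubicin 3 and 5 and lowest in doxorubicin 4, so its order over the doxorubicin libraries was not that of ITGAM. ITGAM, ITGAX and ITGAD are neighbouring relatives on chromosome 3, so reads could be split between them, and ITGAD averaged 0.794 CPM after doxorubicin and 0.496 CPM in vehicle.

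Leukocyte markers differed by list. Over all tested genes 13.6% were called higher and 11.3% lower. Macrophage markers had 6 of 11 tested called higher and summed to 246, 453, 544, 461 and 738 CPM after doxorubicin, and 143, 182 and 196 CPM in vehicle. T and NK cell markers had 8 of 11 called higher and summed to 32.7, 48.8, 54.4, 60.5 and 47.4 CPM after doxorubicin, and 15.1, 16.9 and 20.6 CPM in vehicle. Of neutrophil markers 0 of 3 tested were called higher and 1 lower, and of B and plasma cell markers 0 of 3 were called. No marker found of the macrophage and T and NK cell lists lacked reads. The macrophage sum was highest in doxorubicin 5, where ITGAM was lowest of the doxorubicin libraries, and the part of these cells in the rise of the leukocyte integrins was not tested. ITGAE, the chain of tissue-resident T cells, had 15.8, 16.2, 13.7, 16.6 and 14.6 CPM after doxorubicin, and 12.3, 13.2 and 12.1 CPM in vehicle. Its groups did not overlap, but it did not pass (log2 fold change 0.29, SE 0.15, adjusted p = 0.158), except with library size only and with limma voom. ITGA4 and ITGB7, which form a lymphocyte homing receptor, averaged 5.09 and 5.92 CPM after doxorubicin and 4.08 and 3.19 CPM in vehicle, and did not pass.

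The platelet integrin was read at a low level. ITGA2B, found almost only in the platelet lineage, had 1.47, 1.11, 0.934, 0.934 and 0.700 CPM after doxorubicin, and 0, 0.555 and 1.14 CPM in vehicle, and did not pass (log2 fold change 0.86, SE 0.78, adjusted p = 0.433). ITGB3, its partner and also a partner of ITGAV in endothelium, had 4.91, 6.06, 4.16, 5.29 and 4.25 CPM after doxorubicin, and 3.79, 2.36 and 1.85 CPM in vehicle. Its groups did not overlap, and its log2 fold change of 0.89 (SE 0.30) missed the threshold (adjusted p = 0.0536) but passed with DESeq2, with limma voom, with library size only and without doxorubicin 5. Platelet markers summed to 6.66 to 9.71 CPM after doxorubicin and 3.07 to 4.58 CPM in vehicle. Of the 8 markers 7 were found and 3 tested, and 1 was called higher, where 13.6% of all tested genes were. Their part in the levels of ITGA2B and ITGB3 was not tested. Over all 39 tested members, groups did not overlap for 14 that were higher and 1 that was lower. Of all tested genes, 17.1% were higher and 17.8% lower without overlap.

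The make-up of each chain class, which does not depend on how libraries are scaled, was taken as each chain's share of the length-scaled counts of its class and is given without a test. ITGA7 made up 41.6%, 46.6%, 56.2%, 34.3% and 40.1% of integrin α chain transcripts after doxorubicin, and 21.0%, 25.4% and 19.3% in vehicle. ITGA5 made up 25.7% ± 8.26 after doxorubicin and 41.1% ± 2.59 in vehicle (SD, n = 5 and n = 3). The most abundant α chain was thus ITGA7 in doxorubicin 1, 2, 3 and 5 and ITGA5 in doxorubicin 4 and in the vehicle libraries. LAMA5 made up 26.8%, 29.7%, 36.9%, 23.1% and 35.4% of laminin α chain transcripts after doxorubicin, and 13.4%, 14.5% and 13.2% in vehicle. LAMA2 made up 27.4%, 26.1%, 20.6%, 27.4% and 11.8% after doxorubicin, and 36.1%, 35.4% and 31.2% in vehicle. Neither share overlapped between groups, while LAMA4 stayed the largest laminin α chain in all 8 libraries, at 46.5% ± 4.02 after doxorubicin and 51.7% ± 2.85 in vehicle. Shares of a class are tied, so a larger share of 1 chain lowers those of the others. The levels of LAMA2 and ITGA5 themselves overlapped between groups, and neither passed.

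Per length, LAMA5 stood at 0.843 to 2.996 times LAMA2 after doxorubicin and at 0.370 to 0.422 times LAMA2 in vehicle. NID2 made up 55.4%, 68.1%, 74.4%, 55.6% and 78.3% of nidogen transcripts after doxorubicin, and 54.0%, 54.0% and 51.4% in vehicle. Doxorubicin 1 and 4 lay just above vehicle and the other doxorubicin libraries well above. ITGB6 made up 4.83% ± 3.05 of integrin β chain transcripts after doxorubicin and 13.7% ± 0.259 in vehicle, with no overlap. The ITGB1 share overlapped, at 57.9% ± 9.95 after doxorubicin and 55.0% ± 1.55 in vehicle. Among laminin β chains LAMB1 held 36.0% in doxorubicin 5, 12.6% to 15.6% in the other doxorubicin libraries and 9.07% to 13.1% in vehicle, with LAMB2 holding nearly all the rest. Without doxorubicin 5 the difference in the LAMB1 share was 2.48 percentage points, against 6.98 with it, and that in the ITGB1 share was −1.25, against 2.90.

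**Figure D3:**
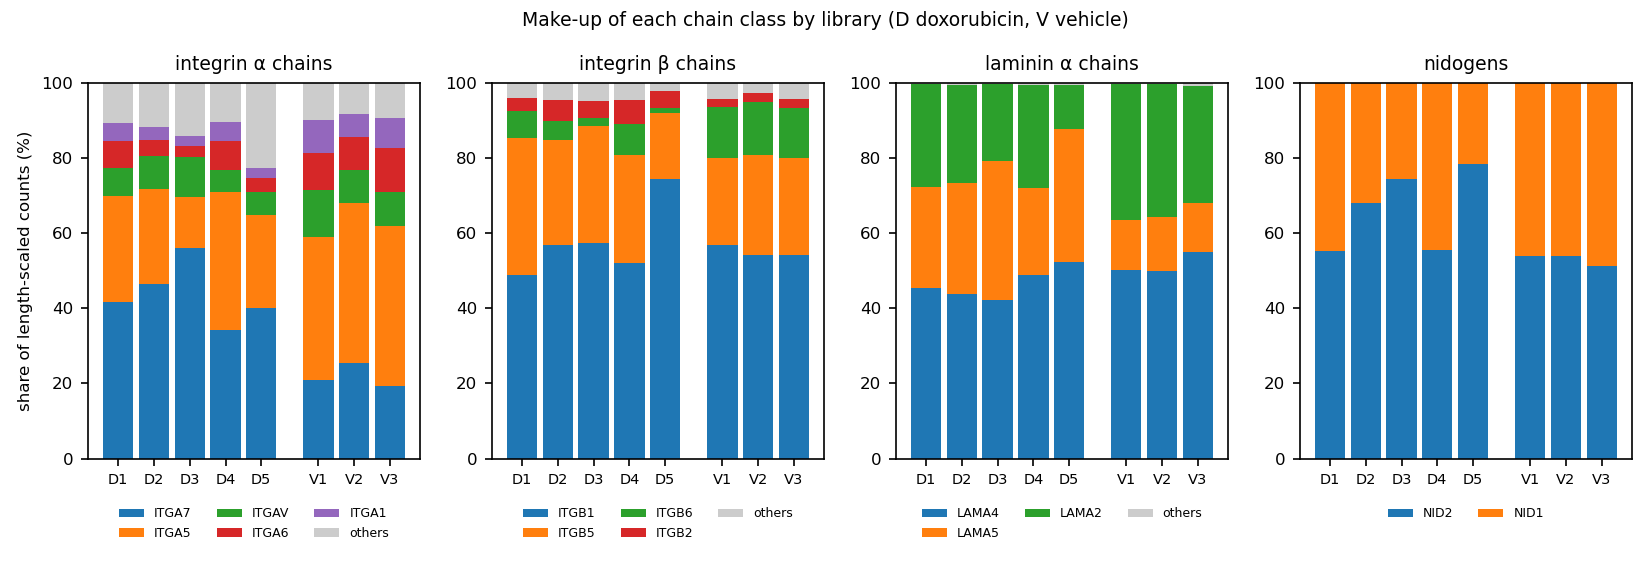
Share (%) of the length-scaled counts of integrin α chains, integrin β chains, laminin α chains and nidogens held by each chain in doxorubicin libraries D1 to D5 and vehicle libraries V1 to V3. ITGA7 and LAMA5 take larger shares in all doxorubicin libraries, and ITGA5, LAMA2 and ITGB6 smaller ones. Shares of a class are tied, and of the chains with smaller shares named here only ITGB6 was called lower in level.

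The doxorubicin libraries differed among themselves. Of the 39 tested genes, 15 were highest in doxorubicin 3 (38.5%, against 17.2% of all tested genes), and 15 were lowest in doxorubicin 5 (38.5%, against 33.1% of all tested genes). The plot of abundant chains by library shows doxorubicin 3 with the highest ITGA7, LAMA5 and NID2. Doxorubicin 5 combined the highest ITGB1, LAMB1 and ITGA8 with the lowest LAMA2, LAMB2, NID1, ITGA6 and ITGB6. Doxorubicin 1 and 4 lay nearest to vehicle for ITGA11.

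**Figure D4:**
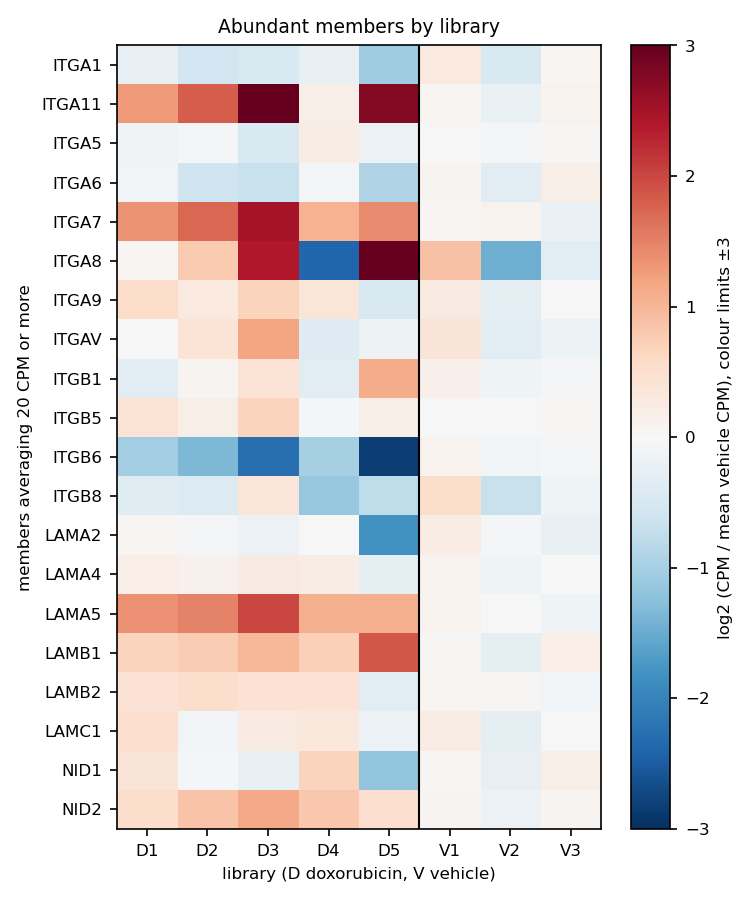
Log2 ratio of CPM to the vehicle mean for the 20 integrin, laminin and nidogen genes averaging 20 CPM or more, in doxorubicin libraries D1 to D5 and vehicle libraries V1 to V3, with colours limited to ±3. ITGA7, LAMA5, LAMB1 and NID2 are red in all 5 doxorubicin libraries and ITGB6 is blue, while LAMA2, LAMB2 and NID1 depart in D5.

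Partners of these genes were read from 3 lists. Over all tested genes 13.6% were called higher and 11.3% lower, with a median log2 fold change of 0.02. Without vehicle 1, 2 or 3, the genes called higher over all genes fell from 2033 to 334, 1106 or 338. Inside the cell, of 40 genes for integrin adaptors, activators and kinases 11 rose and 1 fell (median log2 fold change 0.37). VASP, an actin regulator of focal adhesions, averaged 61.2 ± 13.7 CPM after doxorubicin and 19.9 ± 2.82 CPM in vehicle (SD, n = 5 and n = 3; log2 fold change 1.62, adjusted p = 0.00497 by edgeR). BCAR1, the p130Cas scaffold, SRC, the kinase that acts on it, and FERMT3, the kindlin of blood cells, had log2 fold changes of 1.45 (SE 0.21), 1.36 (SE 0.22) and 2.23 (SE 0.36). PARVB, the β-parvin that links ILK to actin, fell by 0.67 on the log2 scale (SE 0.16, adjusted p = 0.0175). ILK, the talins TLN1 and TLN2, vinculin (VCL), PTK2 and the muscle integrin partner ITGB1BP2 did not pass and were named after their values were seen, with log2 fold changes between −0.42 for PTK2 and 0.40 for TLN1. With library size only, 18 of this list were called higher and none lower, and without vehicle 1, 2 or 3 the list had 5, 6 or 5 higher.

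Among integrin ligands other than laminins, 27 of 30 were tested, 12 rose and 1 fell (median log2 fold change 1.03). The genes with the smallest p were VCAM1, an endothelial ligand of leukocyte integrins, which fell by 0.96 on the log2 scale (SE 0.15, adjusted p = 0.00622), CDH1, the ligand of ITGAE (2.02, SE 0.39, adjusted p = 0.00982), the microfibril protein FBN1 (1.07, SE 0.21, adjusted p = 0.0108), and CTGF, a matricellular protein (3.17, SE 0.69, adjusted p = 0.0142). VCAM1 had 39.9, 35.8, 48.6, 33.1 and 39.0 CPM after doxorubicin, and 71.1, 79.8 and 77.9 CPM in vehicle, with no overlap. Summed levels of this list ran from 3415 to 41227 CPM over the doxorubicin libraries, highest in doxorubicin 5, and from 1674 to 2104 CPM over the vehicle libraries. Without vehicle 1, 2 or 3 it had 1, 2 or 0 members higher (edgeR; 12 with all libraries), and VCAM1 passed in each.

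Of basement membrane proteins and non-integrin laminin receptors, 28 of 30 were tested, 13 rose and 1 fell (median log2 fold change 0.78). COL4A2 and COL4A1, the main collagen IV chains, averaged 734 ± 127 and 992 ± 224 CPM after doxorubicin and 225 ± 12.2 and 425 ± 32.2 CPM in vehicle (log2 fold changes 1.71 and 1.22). COL18A1, which carries endostatin, and PXDN, the peroxidase that crosslinks collagen IV, had log2 fold changes of 2.09 (SE 0.39) and 1.08 (SE 0.20). DMD, dystrophin, the link from the laminin receptor dystroglycan to actin, fell by 1.03 on the log2 scale (SE 0.31, adjusted p = 0.0402). Dystroglycan itself (DAG1), named after its value was seen, averaged 293 CPM after doxorubicin and 256 CPM in vehicle and did not pass. DMD was not called when any 1 of doxorubicin 2, 3 and 4 or vehicle 1, 2 and 3 was left out, and the list had 1, 6 or 2 members higher without vehicle 1, 2 or 3.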

How the data were processed

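Heart RNA of 8 libraries was measured by RNA sequencing, 5 after doxorubicin and 3 after vehicle. The authors deposited raw counts per gene and a gene length. The sources used here name no aligner or counter and do not say whether strand was used. Per the labels' protocols, libraries were made with a SMARTER mRNA kit. Columns were matched to samples by title. The 40 members matched RefSeq entries of the pig assembly Sscrofa11.1 by identifier, start and end.

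The counts were fitted by edgeR 4.0.16 under R 4.3.3 (filterByExpr, minimum count 10 and total 15; TMM; robust quasi-likelihood test, treatment only; two-sided; Benjamini-Hochberg over 14938 genes, threshold 0.05). SE was derived from log2 fold change and F. CPM were scaled by TMM, and RPKM divided them by gene length. Libraries of a group differed by 17.2 to 284 times sampling noise (chi-square per degree of freedom), and none was counted as a copy. Alternatives used limma 3.58.1, DESeq2 1.42.0 and other scalings, filters and libraries. Figures used matplotlib 3.10.9.

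Genes were named in full if called, if averaging 20 CPM or more, or if ITGA2B, ITGB2, ITGB3 or ITGB6. From each pathway list the 4 called genes with the smallest p were named. Results of 1 member are not reported here. Members and lists were chosen with earlier results of these data known. Reads of overlapping genes (13 members, 6 of them called) cannot be told apart without strand. ITGA1 and PELO overlap on the same strand, so strand would not separate their reads. Markers of B and plasma cells summed to 5.81 to 147 CPM after doxorubicin and 12.5 to 14.2 CPM in vehicle, of neutrophils to 2.18 to 6.40 CPM after doxorubicin and 3.07 to 5.41 CPM in vehicle, of Schwann cells to 242 to 408 CPM after doxorubicin and 173 to 227 CPM in vehicle, and of smooth muscle and pericytes to 5837 to 10247 CPM after doxorubicin and 5141 to 5697 CPM in vehicle. The smooth muscle and pericyte sums did not overlap between groups. Of those 12 markers 4 were called higher and 1 lower, where 13.6% of all tested genes were called higher and 11.3% lower. Their part in the changes of the members was not tested.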

Additional observations from a re-analysis of the deposited data

Results flagged for a closer look

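In 4 laminin genes doxorubicin 5 lay far from the other doxorubicin libraries by Dixon's gap test on log2 CPM. Chance flags any of the 5 libraries, at either end, in about 1 of 20 groups, so a given library is flagged less often. These were 10.3% of the 39 tested members, where doxorubicin 5 was set apart in the same way for 7.03% of the 14755 tested genes with reads in all doxorubicin libraries. The other doxorubicin libraries were each set apart for 0.210% to 0.840% of those genes and for 0 members. LAMA2 had 66.0 CPM there, against 207 to 244 CPM in the other doxorubicin libraries and 201 to 271 CPM in vehicle. LAMB2 had 423 CPM there, against 718 to 769 CPM in the other doxorubicin libraries and 504 to 555 CPM in vehicle. LAMA4 had 161 CPM there, against 212 to 235 CPM in the other doxorubicin libraries and 178 to 208 CPM in vehicle. LAMB1 had 288 CPM there, against 125 to 159 CPM in the other doxorubicin libraries and 65.7 to 91.2 CPM in vehicle. LAMB1 was high and the other 3 were low in the same library.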

How the results depend on the processing

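All 14 called members passed with library size only, which put the all-gene median log2 fold change at 0.38, against 0.02, and called 4093 genes higher and 499 lower, against 2033 and 1681. It called 17 members higher and 1 lower, 18 adaptors higher and 0 lower, and 0 basement membrane partners lower. A 1.5-fold minimum called 347 genes higher and 142 lower, 2 members higher (ITGA7 and LAMA5) and 0 lower, 5 adaptors, 2 ligands and 2 basement membrane partners higher, and 0 of each lower. Limma voom called 4053 genes higher and 4034 lower, 4 members lower, 19 adaptors higher and 9 lower, 3 ligands lower and 2 basement membrane partners lower. DESeq2 called 3 adaptors and 2 ligands lower. Scaling without abundant genes called 2 ligands lower, and no filter 7 ligands higher. Of members not called, ITGA1 and ITGA6 passed as lower with limma voom and ITGB5 as higher with library size only. The cause of these shifts was not tested.

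Leaving out 1 library each gave 334 to 2472 genes higher and 315 to 2265 lower, 1 to 14 members higher and 0 to 2 lower, 5 to 15 adaptors higher and 0 to 3 lower, 0 to 14 ligands higher and 1 to 3 lower, and 1 to 16 basement membrane partners higher and 0 to 1 lower. The fewest members were called higher without vehicle 3 and the most without doxorubicin 5.

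The sign of log2 fold changes that did not pass turned for ITGA5 (0.25) and LAMA2 (0.10) with library size only, and for LAMA2 (0.0655), ITGAD (−0.18) and ITGB1 (−0.0057) with limma voom. It also turned for ITGB1 without doxorubicin 5 (−0.0042; up to 0.4252), ITGAV without doxorubicin 3 (−0.0046; up to 0.5538), ITGB4 (−0.11; up to 0.6119) and LAMA3 (−0.17; up to 0.6908) without vehicle 2, and NID1 without doxorubicin 1 (−0.06), doxorubicin 4 (−0.17) or vehicle 2 (−0.06), with up to 0.2386 without doxorubicin 5. Without scaling by length the share of ITGA1 differed by −6.71 percentage points, against −3.98. Without doxorubicin 5 the LAMB2 share differed by −2.60 points, against −7.15, and the ITGB1 share turned to −1.25.

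Libraries with the same replicate number in the 2 groups showed little shared deviation (correlations of deviations 0.0425, 0.00205 and −0.00312). Libraries with different numbers were not compared, so this cannot settle whether the numbers mark a pairing. The replicate block called 2036 genes higher and 1602 lower, 13 members higher and 1 lower, and 3 ligands lower. LAMC3 was lost (adjusted p = 0.0548) and ITGB7 passed (0.0417).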
